A study of Mus musculus with 8 samples.

Results

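The miR-29 family was profiled in mouse bone marrow-derived macrophages by sequencing of small RNA, as 7 of the 1907 mature microRNAs (miRNAs) listed in each library. The 7 are the arms named miR-29a, miR-29b and miR-29c in the count tables, taken by name and without regard to their values. They are mmu-miR-29a-3p, mmu-miR-29a-5p and mmu-miR-29b-1-5p from the 29b-1/29a locus, mmu-miR-29c-3p, mmu-miR-29c-5p and mmu-miR-29b-2-5p from the 29b-2/29c locus, and mmu-miR-29b-3p, which both loci encode. The species prefix is left out below. All 7 passed the filter on low counts that left 357 miRNAs for testing.

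The cells came from wild-type mice of 8 to 12 weeks and were grown into macrophages over 6 days in L929 supernatant, which is a source of macrophage colony-stimulating factor. In 3 libraries the cells had received LPS, a bacterial lipid sensed through Toll-like receptor 4, at 100 ng/ml for 3 h, and in the other 3 they were unstimulated. Whether replicates of a condition were separate mice or cultures is not labelled, so every p-value rests on a spread between libraries that may be technical.

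A miRNA hairpin is cut from a longer primary transcript and then trimmed to a duplex. The guide arm of the duplex is kept in the silencing complex and pairs with target mRNAs through its seed, while the passenger arm is mostly degraded. In the miR-29 family the 3p arms are the guides. They are known for repressing collagens and other matrix genes, the DNA methyltransferases Dnmt3a and Dnmt3b, and the survival factor Mcl1. Each miR-29 locus makes a pair of hairpins from a shared primary transcript, so a 5p arm can report on its own locus even where the guide sequence is the same at both.

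The mature sequences are shown because they decide which arms can be assigned to a locus. They are from RefSeq (GRCm38.p6), written 5′ to 3′ with the seed, bases 2 to 8, in capitals.
miR-29a-3p: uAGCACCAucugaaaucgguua
miR-29c-3p: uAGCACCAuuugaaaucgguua
miR-29b-3p: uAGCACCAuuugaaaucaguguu
miR-29a-5p: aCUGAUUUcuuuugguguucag
miR-29c-5p: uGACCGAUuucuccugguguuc
miR-29b-1-5p: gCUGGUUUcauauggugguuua
miR-29b-2-5p: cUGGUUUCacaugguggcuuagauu

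The 3 guide arms share the seed AGCACCA, and no other of the 1679 mature miRNA names in the RefSeq table has it. The 4 passenger arms each have a seed of their own, and 1 of these, that of miR-29b-2-5p, recurs in another name of the table, miR-6338. The guides differ outside the seed. Counted from 1 at the 5′ end, miR-29a-3p and miR-29c-3p are separated by a single substitution, C10U, while miR-29b-3p departs from miR-29c-3p by G18A, U21G and A22U and has 1 base more. The 3′ end of miR-29b-3p, bases 18 to 23, reads AGUGUU, the hexanucleotide described for nuclear import of human miR-29b. It occurs in 12 of the 1679 names (0.715%), in no other miR-29 arm, and in no other of the 314 tested miRNAs that matched the table. Nuclear RNA was not measured separately here.

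The hairpins of the 29b genes are printed with their annotated arms in capitals, to show that the 3p arm is the same at both loci and the 5p arm is not.
Mir29b-1: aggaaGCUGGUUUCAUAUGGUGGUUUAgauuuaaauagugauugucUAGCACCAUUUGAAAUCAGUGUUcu
Mir29b-2: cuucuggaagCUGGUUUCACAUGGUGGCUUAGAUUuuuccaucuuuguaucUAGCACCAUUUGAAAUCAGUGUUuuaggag

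The 5p arms of these hairpins overlap over 21 bases with miR-29b-2-5p starting at base 2 of miR-29b-1-5p, and 19 of the 21 are identical. The substitutions are U11C and U19C in the numbering of miR-29b-1-5p. The 5p arms of miR-29a and miR-29c matched at 17 of 20 overlapping bases. Mir29a and Mir29b-1 lie on the minus strand of chromosome 6 between 31062660 and 31063093 (GRCm38.p6), with 275 bases between the hairpins and no other RefSeq gene spanning them. Mir29b-2 and Mir29c lie on the plus strand of chromosome 1 between 195037040 and 195037634, with 426 bases between them, inside the span of the long noncoding RNA gene A330023F24Rik (195017399 to 195037908). The gene table gives spans only, so exon or intron was not assigned.

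Library totals were 3280688 to 4105395 counts in LPS libraries and 3912296 to 4312555 in unstimulated libraries. Of 7 arms typical of myeloid cells, 6 were tested and 1 fell, miR-223-5p (log2 fold change -0.86, SE 0.15), with miR-22-3p the highest of them. Over all 357 tested miRNAs 5 fell (1.4%). The seventh, miR-142a-3p, was at 0 in all 6 libraries beside 196331 to 238828 counts of its partner miR-142a-5p. Markers of erythroid cells summed to 2 to 5 counts per LPS library and 0 to 2 per unstimulated library. Those of stromal cells such as fibroblasts, which are known to express miR-29, summed to 5 to 9 and 1 to 9 counts, with miR-199a-5p, miR-199b-3p and both arms of miR-145a at 0 throughout. Both arms of miR-199a are encoded by 2 hairpins, and how such reads were counted is not given, so these arms are uncertain as markers. Endothelial miR-126a arms gave 0 and 0 to 1 counts, and 3 muscle miRNAs gave none. An arm at 0 can stand beside many counts of its partner, as for miR-142a-3p, so zeros alone do not show that a cell type was absent. The 7 epithelial arms summed to 948 to 1150 counts in LPS and 1066 to 1239 in unstimulated libraries, led by miR-141-3p, and 0 of 6 tested passed. Lymphocyte-typical miR-150-5p had a level of 71.8 ± 7.12 CPM (counts scaled to a common library size) after LPS and 62.3 ± 7.89 CPM in unstimulated cells (SD, n = 3 each), and did not pass. In bulk samples such as these, fewer cells of a type and less RNA per cell cannot be told apart.

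The first question was which miR-29 arms these macrophages hold and in what order. Levels are CPM after scaling with TMM factors, and the arms are 22 to 25 bases long, so length hardly enters. The efficiency of adapter ligation differs between sequences and was not measured, so an order of levels is an order of sequenced counts. The family was dominated by miR-29a-3p. It had 7177, 5825 and 6941 CPM in the 3 LPS libraries, against 5677, 6685 and 7525 CPM in the unstimulated libraries. These ranges overlap, and by mean level the arm ranked 19 of the 357 tested miRNAs. The other guide with a locus of its own, miR-29c-3p, had 551.2, 378.3 and 422.6 CPM in LPS libraries and 436.1, 412.1 and 459.3 CPM in unstimulated libraries. It ranked 72, and its highest and its lowest value were both in LPS libraries.

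The third guide, miR-29b-3p, was almost absent. It had 17, 10 and 15 counts in LPS libraries and 16, 12 and 11 counts in unstimulated libraries, or 3.88 ± 1.47 CPM and 3.13 ± 0.595 CPM (SD, n = 3 each). Among the 3 guides, miR-29a-3p took 93.63% ± 0.735 of counts after LPS and 93.73% ± 0.795 in unstimulated cells, miR-29c-3p 6.32% ± 0.723 and 6.23% ± 0.781, and miR-29b-3p 0.0536% ± 0.0151 and 0.0455% ± 0.0149. None of the 3 shares differed between conditions beyond the spread of libraries (two-sided exact permutation p = 0.7, 1 and 0.6, and 1 for each when adjusted over the 3). No p below 0.1 is possible with 3 against 3 libraries.

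Passenger arms followed at lower levels. miR-29a-5p was at 68.1 ± 8.07 CPM after LPS and 66.1 ± 5.40 CPM in unstimulated cells, and miR-29c-5p at 19.7 ± 4.46 and 17.9 ± 4.07 CPM (SD, n = 3 each). miR-29b-2-5p had 5.38, 3.68 and 5.33 CPM in LPS libraries and 4.75, 5.34 and 4.85 CPM in unstimulated libraries. The order from miR-29a-3p through miR-29c-3p, miR-29a-5p and miR-29c-5p down to the 29b arms was the same in both conditions, with no overlap between neighbours over the libraries of a condition. Only among the 3 arms of miR-29b did the order depend on the condition. There miR-29b-1-5p was above miR-29b-2-5p in every LPS library and below it in every unstimulated library, and miR-29b-2-5p and miR-29b-3p overlapped after LPS.

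**Figure D1:**
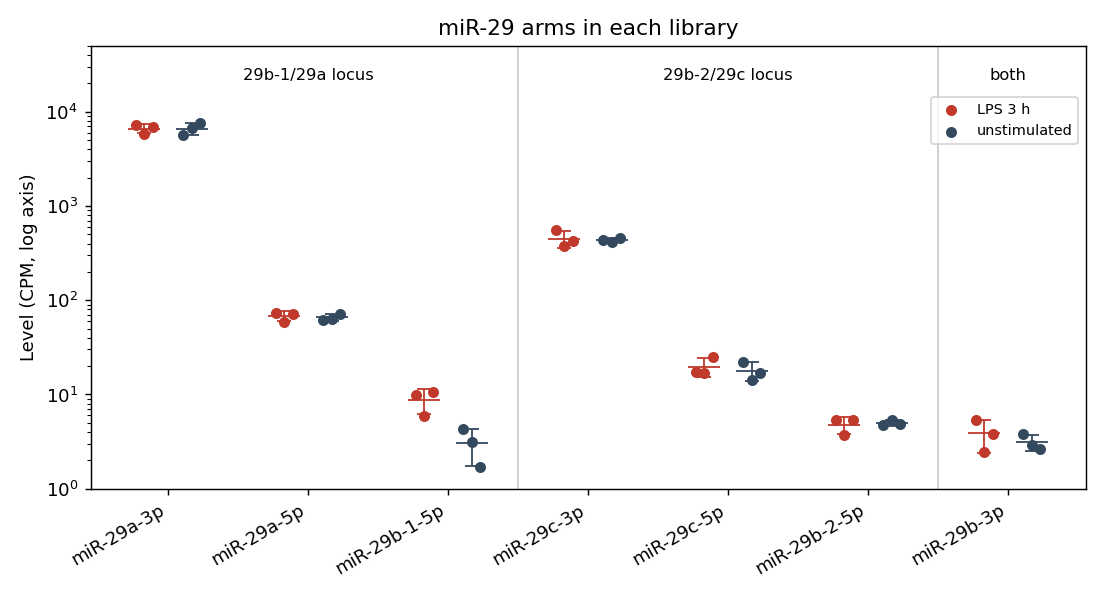
Level of each miR-29 arm in CPM (log axis) in the 3 LPS and 3 unstimulated libraries; points are libraries, horizontal bars means and error bars the SD. Levels span from about 6638 CPM for miR-29a-3p to 3.50 CPM for miR-29b-3p as means over the 6 libraries, and the groups separate for miR-29b-1-5p only.

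Counting noise differs along this order. In miR-29a-3p the SD between libraries was 16.9 times after LPS and 23.1 times in unstimulated cells what counting error alone gives, so depth does not limit it. For miR-29b-2-5p it was 0.844 and 0.289 times, and for miR-29b-3p 1.40 and 0.686 times, which is about the noise of the counts themselves. miR-29b-1-5p had 1.64 and 1.51 times. Reads carry no molecular identifiers, so these figures cover counting error only.

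The low count of miR-29b-3p stood apart from the ratio of guide to passenger arm in its relatives. miR-29a-3p had 97.8 ± 1.09 times the counts of miR-29a-5p after LPS and 100.04 ± 7.60 times in unstimulated cells. For miR-29c the ratio was 23.7 ± 7.42 and 25.1 ± 4.91. miR-29b-3p had 0.283 ± 0.0624 times the summed counts of miR-29b-1-5p and miR-29b-2-5p after LPS and 0.390 ± 0.0418 times in unstimulated cells, so the guide was below the sum of its passengers in every library, where the ratio ran from 0.238 to 0.421. Against the passengers singly it was not always lower: unstimulated replicate 3 had 11 counts of miR-29b-3p and 7 of miR-29b-1-5p, and LPS replicate 1 had 17 counts of both miR-29b-3p and miR-29b-2-5p.

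How reads that map to several hairpins were treated is not given in the sources used here, and other mature miRNAs with hairpins at several places were compared for this reason. The count tables hold 51 such names, of which 33 were at 0 in all 6 libraries, against 771 of 1572 names with a single hairpin in the RefSeq table. In 14 of the 51, the locus-specific partner arms had at least 20 counts in all, and in 6 of these 14 the shared arm had fewer counts than its partners. For miR-29b-3p the ratio was 0.324, from 81 counts against 250. It was 0 for miR-3074-5p, 0.013 for miR-181a-5p, 0.0518 for miR-7a-5p, 0.0608 for miR-30c-5p and 0.0697 for miR-125b-5p. The remaining ratios ran from 1.44 for miR-16-5p to 378.1 for miR-92a-3p, and the median of the 14 was 3.86. Among 100 hairpins whose arms are both unique by name, the abundant arm had a median of 12.97 times the counts of the other. That measure puts the abundant arm on top by definition, so it cannot be set directly against the ratios of shared arms. The part of read assignment in the level of miR-29b-3p was not tested, and its level, its share and any ratio that uses it describe the deposited counts.

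**Figure D2:**
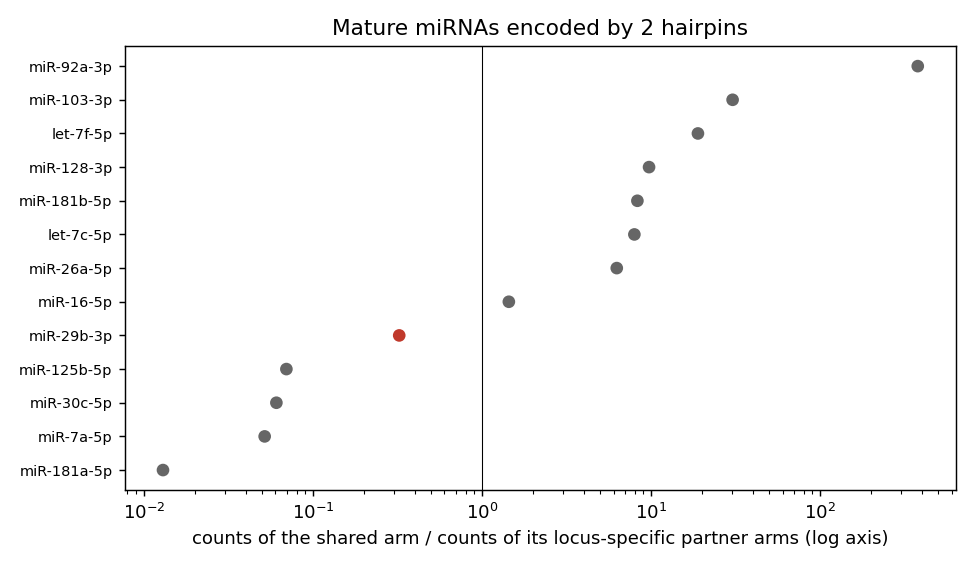
Counts of mature miRNAs encoded by 2 hairpins divided by the summed counts of their locus-specific partner arms, over all 6 libraries (log axis); miR-29b-3p is in red. It sits at 0.324, below 1 with miR-125b-5p, miR-30c-5p, miR-7a-5p and miR-181a-5p, and miR-3074-5p, at 0 counts, cannot be drawn on this axis.

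The main comparison asked which miR-29 arms LPS changed within 3 h. Of the 7 arms, 1 rose, miR-29b-1-5p, the passenger of the 29b hairpin on chromosome 6, and none fell. It had 31, 24 and 42 counts in LPS libraries, against 18, 13 and 7 in unstimulated libraries. In CPM these were 9.82, 5.88 and 10.7 after LPS and 4.27, 3.16 and 1.70 in unstimulated cells. The groups did not overlap, but LPS replicate 2, the lowest of its group, lay closer to the highest unstimulated library than to the other LPS libraries. The log2 fold change was 1.51 (SE 0.36, 95% interval 0.71 to 2.31), a 2.85-fold rise on 97 counts in all after LPS and 38 in unstimulated cells, with an adjusted p of 0.0392 by edgeR's quasi-likelihood test.

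Over all tested miRNAs 18 changed (5.04%), 13 upward (3.64%) and 5 downward (1.4%), and with upper-quartile scaling 8 changed upward and 5 downward. DESeq2 called 22 of 475 (4.63%). A count of 1 in 7 arms is too small to be read as a larger share than this. Among 81 tested miRNAs of a like level, 3 to 10 CPM, 4 changed (4.94%). The LPS libraries lay wholly above the unstimulated ones for 31 miRNAs (8.68%), miR-29b-1-5p among them.

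The call of miR-29b-1-5p rests on single libraries. It ended without LPS replicate 1 (edgeR adjusted p = 0.124), LPS replicate 3 (0.162), unstimulated replicate 2 (0.0971) or unstimulated replicate 3 (0.0986), and with upper-quartile factors (0.0628). A fit with the replicate number as a block ended it as well (edgeR adjusted p = 0.0808), though the labels do not tie a number to an animal. The log2 fold change kept its sign and stayed between 1.26 and 1.79 in all 13 alternatives that tested it.

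The other 6 arms did not pass. miR-29a-3p had a log2 fold change of 0.0040 (SE 0.13), with a 95% interval of -0.28 to 0.29, that is 0.822-fold to 1.22-fold. For miR-29c-3p it was 0.047 (SE 0.15), with an interval of -0.28 to 0.37. In folds this is 0.825-fold to 1.29-fold, whereas for the scarce miR-29b-3p (0.28, SE 0.35) the interval was wider, from 0.704-fold to 2.08-fold. miR-29a-5p was at 0.041 (SE 0.15), miR-29c-5p at 0.14 (SE 0.24) and miR-29b-2-5p at -0.064 (SE 0.27). Adjusted p-values of these 6 arms ran from 0.943 to 0.998 (edgeR), and their groups overlapped. The signs of miR-29a-3p, miR-29a-5p and miR-29c-3p flip with upper-quartile factors or library totals, and that of miR-29a-3p also with RLE factors and DESeq2. The median of the 7 arms was 0.047, against 0.0093 over all tested miRNAs.

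**Figure D3:**
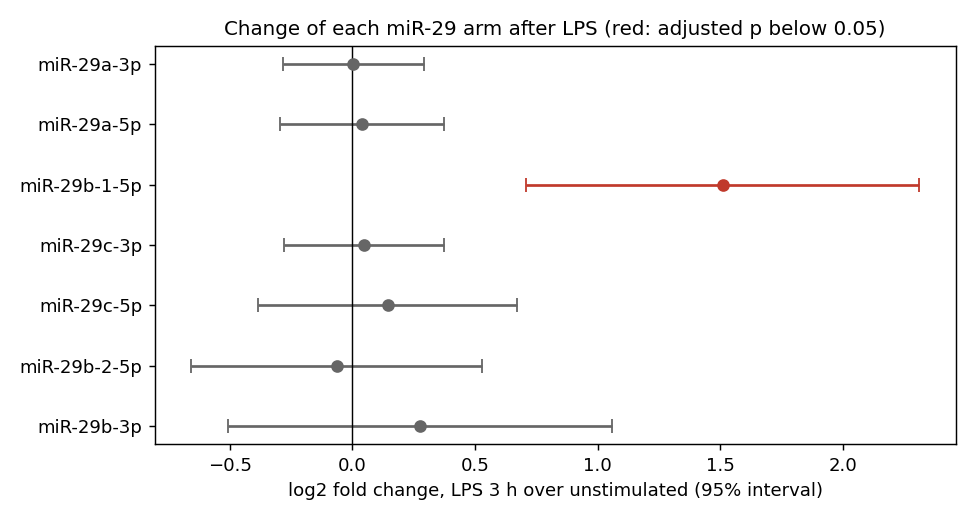
Log2 fold change of each miR-29 arm, LPS over unstimulated, with its 95% interval from the edgeR fit; red marks an adjusted p below 0.05. The interval of miR-29b-1-5p runs from 0.71 to 2.31 and the other 6 include 0.

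**Figure D4:**
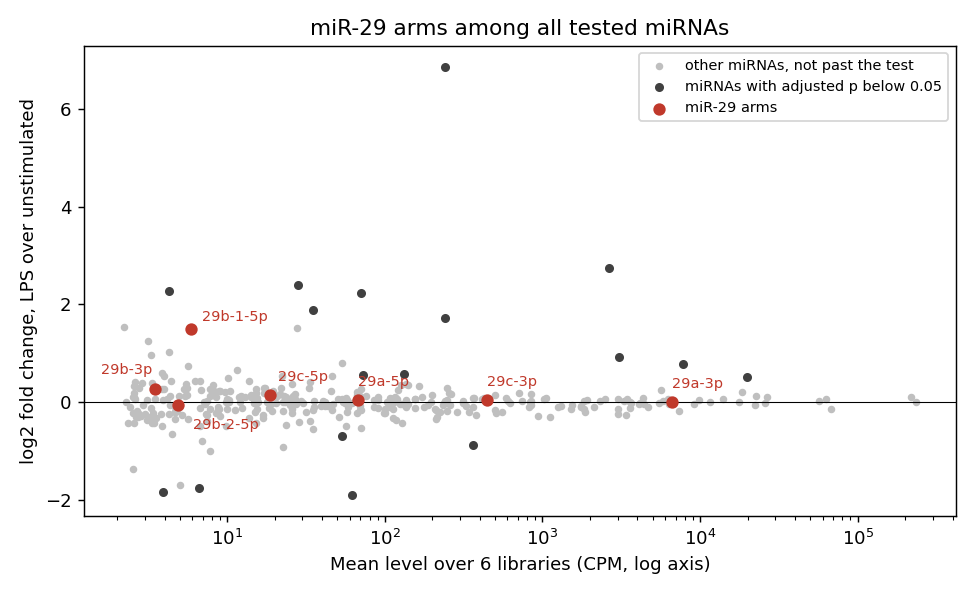
Log2 fold change against mean level in CPM (log axis) for all 357 tested miRNAs, with miR-29 arms in red and labelled. miR-29b-1-5p, at 5.91 CPM, lies with the scarce miRNAs, and the abundant miR-29a-3p and miR-29c-3p lie near 0.

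The next comparison set the loci against each other through their own arms. Within a library a ratio of counts needs no scaling. miR-29a-3p had 13.0, 15.4 and 16.4 times the counts of miR-29c-3p in LPS libraries, against 13.0, 16.2 and 16.4 times in unstimulated libraries. Replicate 1 was the lowest in both conditions, and the groups overlapped. On the log2 scale the ratio after LPS differed from that in unstimulated cells by -0.024. For the passengers, miR-29a-5p over miR-29c-5p, the ratios were 4.24, 3.48 and 2.88 in LPS libraries and 2.79, 4.46 and 4.26 in unstimulated libraries, a difference of -0.11. The sums of the 3 arms of each locus gave 14.3 ± 1.49 times the counts from the 29b-1/29a locus as from the 29b-2/29c locus after LPS, and 14.6 ± 1.92 times in unstimulated cells (SD, n = 3 each), and 1 arm of the sum, miR-29a-3p, carries nearly all of it.

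The 29b passengers gave another picture, but it reuses the counts of miR-29b-1-5p behind the call above and is not a separate observation. The same counts enter its share of the locus and the Mir29b-1 arm difference below. miR-29b-1-5p had 1.82, 1.6 and 2 times the counts of miR-29b-2-5p in LPS libraries, against 0.900, 0.591 and 0.35 times in unstimulated libraries. The groups did not overlap, and the passenger of chromosome 6 was the more abundant of the pair in 3 of 3 LPS libraries and in 0 of 3 unstimulated libraries. The log2 difference was 1.56, and its two-sided exact permutation p = 0.1 is the smallest that 3 against 3 libraries allow. For miR-29a-3p over miR-29c-3p and miR-29a-5p over miR-29c-5p the exact permutation p was 1 and 0.7. Adjusted over the 3 ratios the values were 0.3, 1 and 1, in the order 29b, 29a-3p and 29a-5p, so none of the ratios could be called changed in this design.

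**Figure D5:**
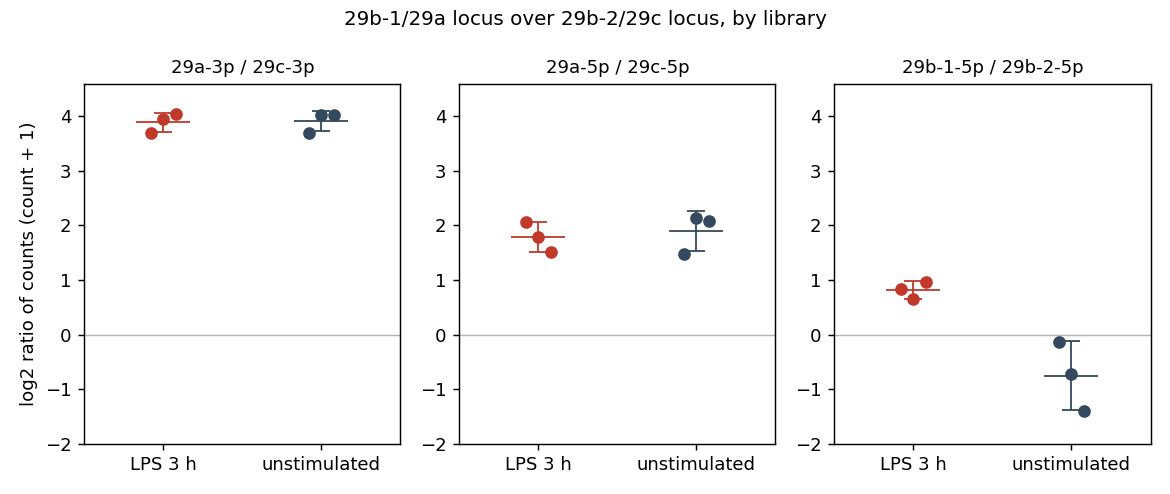
Log2 ratio of counts (each count plus 1) of the 29b-1/29a arm over its 29b-2/29c counterpart in each library; horizontal bars are means and error bars the SD of 3 libraries. The 29b ratio averages 0.81 after LPS and -0.75 in unstimulated libraries without overlap, and the other ratios overlap.

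Shares within a locus were set side by side without a test. miR-29b-1-5p made up 0.129% ± 0.0265 of the counts of the 3 locus-specific arms after LPS and 0.0478% ± 0.026 in unstimulated cells (SD, n = 3 each). miR-29b-2-5p made up 1.01% ± 0.143 and 1.09% ± 0.127 of its own locus.

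The last comparison asked whether the arms of a hairpin changed equally, by limma on the log2 difference between arms over 115 hairpins, of which 14 (12.2%) passed. miR-29a and miR-29c did not, with the less abundant arm gaining 0.030 (SE 0.17) and 0.11 (SE 0.25) on the other (limma adjusted p = 0.937 and 0.854). For Mir29b-1, miR-29b-3p lost 1.19 (SE 0.35) relative to miR-29b-1-5p after LPS, with a limma adjusted p of 0.0327. For Mir29b-2 the same arm gained 0.29 (SE 0.34) on miR-29b-2-5p and did not pass (0.761). Both 29b pairs are uncertain, since counts of miR-29b-3p cannot be assigned to a locus and number 10 to 17 a library. The Mir29b-1 call ended without unstimulated replicate 1 (limma adjusted p = 0.0672) or 3 (0.172) and without LPS replicate 2 (0.125) or 3 (0.138). With the replicate number as a block it ended as well (limma adjusted p = 0.113).

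Other miRNAs near the loci gave no tested change. Within 1 Mb of the 29b-1/29a locus lie Mir335, 321 kb away, and the Mir183, Mir96 and Mir182 cluster, about 893 to 897 kb away. Of the 8 mature arms, 3 were tested. miR-182-5p was at 317.6 ± 45.8 CPM after LPS and 335.5 ± 66.9 CPM in unstimulated cells (log2 fold change -0.078, SE 0.16), miR-183-5p at 40.9 ± 6.93 and 40.02 ± 5.48 CPM (0.035, SE 0.19) and miR-96-5p at 2.34 ± 0.27 and 2.49 ± 1.37 CPM (-0.094, SE 0.45). The only other hairpin within 1 Mb of the 29b-2/29c locus, Mir3962, gave 0 counts in every library.

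Of 18 arms reported as induced by LPS in macrophages, 15 were tested, 5 rose and none fell, with a median log2 fold change of 0.27. Over all 357 tested miRNAs 3.64% rose and 1.4% fell, with a median of 0.0093. The 5 were miR-155-3p (6.85, SE 0.27), miR-155-5p (2.75, SE 0.38), miR-146a-3p (2.41, SE 0.26), miR-455-5p (2.28, SE 0.30) and miR-21a-3p (0.78, SE 0.18). In size the change of miR-29b-1-5p fell between the last pair. Changes of like size in miR-147-3p (1.51, SE 0.42, edgeR adjusted p = 0.076) and miR-455-3p (1.53, SE 0.65, 0.351), also of this list, did not pass.

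Likeness of pattern was described by the correlation of log2 CPM over the 6 libraries, which share the treatment groups and the scaling, and with no test. For miR-29a-3p the 5 most alike miRNAs outside the family were miR-324-3p (Pearson r = 0.989), miR-497a-5p (0.947), miR-425-3p (0.920), miR-100-5p (0.910) and miR-669c-5p (0.905). Their log2 fold changes ran from -0.14 to 0.051, and none passed the test. For miR-29b-1-5p they were miR-674-5p (0.898), miR-32-5p (0.897), miR-21a-3p (0.884), miR-155-3p (0.873) and miR-503-3p (0.872). Of these, miR-21a-3p and miR-155-3p passed the test, and all 5 had positive log2 fold changes. Both groups entered the correlation, so an arm higher after LPS tends to resemble other arms higher after LPS. The signs of the 5 are therefore no separate observation. Within the family miR-29a-3p varied with its own passenger miR-29a-5p (0.898) and hardly with miR-29b-1-5p of the same locus (-0.096), which had 7 to 42 counts a library. With arms of the other locus its correlation was 0.632 for miR-29b-2-5p, 0.574 for miR-29c-3p and -0.187 for miR-29c-5p. The 29b arms are scarce and no test was made, so these values do not settle whether likeness followed the locus.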

How the data were processed

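Per the labels' protocols, libraries were prepared from total RNA with a TruSeq Small RNA kit. The authors deposited raw, unscaled counts for each mature miRNA. Tools named in the submitters' processing notes are Novoalign and SAMtools 0.1.19, with mm10 (GRCm38.p1) as the assembly. Counting tool, annotation release, strand use and treatment of multiply mapping reads: not given in the sources used here. A later patch, GRCm38.p6, gave sequences and positions. Of 1907 listed names, 1623 matched its miRNA table.

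All 357 miRNAs past filterByExpr (minimum count 10, 99.974% of counts) were fitted with edgeR 4.0.16 (R 4.3.3): TMM factors, quasi-likelihood F test, Benjamini-Hochberg adjustment, threshold 0.05. SE is the log2 fold change divided by the square root of F. Arm differences used limma 3.58.1 on log2 CPM with a prior count of 2 and a variance trend. Fits were tested on simulated data. Locus ratios used count plus 1 and exact permutation tests. DESeq2 1.42.0, limma-voom, other scalings, filters and left-out libraries were alternatives. All replicate pairs differed by far more than counting noise (lowest chi-square over its degrees of freedom, 62.96).

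The family, lists and tests were chosen with earlier results of these data known. Named miRNAs followed a rule: all 7 arms, the 5 most alike for miR-29a-3p and miR-29b-1-5p, list members past the threshold or leading in level, neighbours within 1 Mb and sharers of the seed. Other shared arms were named after their values were seen. The 2 samples of a chromosome conformation assay were not analysed here.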

Additional observations from a re-analysis of the deposited data

How the results depend on the processing

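The count of changed miRNAs stayed between 11 (without LPS replicate 3) and 18 when a library was left out, against 18 with all 6, and between 13 and 26 in the other alternatives. Of miR-29 arms 0 passed, in place of 1, with upper-quartile factors, a minimum count of 50 (which removed the 29b arms from testing) or the replicate block, and 0 to 1 without a library. The log2 fold change of miR-29b-1-5p was 1.45 with upper-quartile factors and 1.52 with the replicate block (edgeR adjusted p = 0.0808), and 1.26 to 1.79 without a library. DESeq2 (adjusted p = 0.0359) and limma-voom (0.0488) called it. Signs of uncalled arms turned: miR-29a-3p with RLE factors (-0.0027), upper-quartile factors (-0.059), library totals (-0.058) and DESeq2 (-0.014), miR-29a-5p with upper-quartile factors (-0.023) and library totals (-0.018), and miR-29c-3p likewise (-0.018 and -0.011). Without a library miR-29a-3p ran from -0.14 to 0.14, miR-29a-5p from -0.057 to 0.14, miR-29c-3p from -0.16 to 0.16, miR-29c-5p from -0.0092 to 0.29, miR-29b-3p from -0.040 to 0.54 and miR-29b-2-5p from -0.18 to 0.11. The cause was not tested. Of miR-29 hairpins 0 had an arm difference, in place of 1, with a minimum count of 50 or the replicate block, and 0 to 1 without a library. The arm difference of Mir29b-1 was -1.19 with the replicate block (limma adjusted p = 0.113) and -1.34 to -0.97 without a library, that of miR-29a -0.0041 to 0.096 and that of miR-29c -0.10 to 0.34. Locus ratios without a library differed by -0.13 to 0.072 (29a-3p over 29c-3p), -0.32 to 0.030 (29a-5p over 29c-5p) and 1.24 to 1.87 (29b-1-5p over 29b-2-5p). Share differences ran from -0.56 to 0.31 percentage points for miR-29a-3p and -0.31 to 0.54 for miR-29c-3p. Depth limits the 29b arms, at 7 to 42 counts a library.

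Over all tested miRNAs, same-numbered libraries deviated from their group means with correlations of 0.025, 0.144 and -0.04 for numbers 1 to 3. Not every library correlated best with its own number. The ratio of miR-29a-3p to miR-29c-3p did follow the number, lowest in replicate 1 (13.0 in both conditions) and highest in replicate 3 (16.4 in both). That of miR-29a-5p to miR-29c-5p did not, at 4.24 after LPS and 2.79 in unstimulated cells for replicate 1. The labels do not tie a number to an animal, so a pairing is neither shown nor excluded. The block moved the count of calls to 17, of which 15 were among the 18.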
